A study of Mus musculus with 6 samples.

Results

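Adrenomedullin and its receptor system were followed across 6 arrays of the mouse uterus through 7 genes, out of 18193 genes with a single gene name on the array. The 7 genes were the ligands Adm and Calcb, the receptors Calcrl and Calcr, and the receptor activity-modifying proteins Ramp1, Ramp2 and Ramp3, chosen by gene symbol and not by their measured values. They were represented by 12 probe sets, and the brightest probe set of each gene, by its mean over all 6 arrays, was taken as its main one. The uteri came from 8-week-old females of mixed background whose Gata2 gene was floxed (GATA2 f/f), with no recombinase named in the labels. Ovaries had been removed at 6 weeks of age. The progesterone group received 1 mg of progesterone in 100 µl of sesame oil and the oil group received sesame oil, and in both the tissue was taken 6 h after the injection. Each group had 3 arrays, and the design text gives pools of 3 mice. It does not say if the arrays of a group came from different pools, and the p-values reflect only how much these arrays differed, which can be technical in part.

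Adrenomedullin is a secreted peptide that relaxes blood vessels and is needed for normal blood and lymph vessels and for fertility in the mouse. Its receptor is the G protein-coupled receptor encoded by Calcrl, which reaches the cell surface and gains its ligand preference only with a RAMP partner: with RAMP1 it binds calcitonin gene-related peptide, and with RAMP2 or RAMP3 it binds adrenomedullin. The calcitonin receptor Calcr pairs with the same RAMPs to bind amylin, and these receptors raise cyclic AMP. Progesterone acts in the uterus through its nuclear receptor and prepares the tissue for implantation.

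The sequences just before the transcription starts of Adm, Ramp1 and Calcrl are shown because the main probe sets of these 3 genes differed most between the groups over the 6 arrays, in either direction. They are the 250 bases before the start in RefSeq, build GRCm38.p6, printed 5′ to 3′, and 5 of the 7 genes had an entry. Capitals mark GCGTG or its other strand CACGC, a core bound by hypoxia-inducible factors, of which Adm is a known target.
Adm, chr7:110627407-110627656, plus strand: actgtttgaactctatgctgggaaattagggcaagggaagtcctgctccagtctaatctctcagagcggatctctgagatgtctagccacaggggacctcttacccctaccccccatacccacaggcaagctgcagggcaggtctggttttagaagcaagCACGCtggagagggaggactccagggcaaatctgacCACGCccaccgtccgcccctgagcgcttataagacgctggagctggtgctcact
Ramp1, chr1:91179572-91179821, plus strand: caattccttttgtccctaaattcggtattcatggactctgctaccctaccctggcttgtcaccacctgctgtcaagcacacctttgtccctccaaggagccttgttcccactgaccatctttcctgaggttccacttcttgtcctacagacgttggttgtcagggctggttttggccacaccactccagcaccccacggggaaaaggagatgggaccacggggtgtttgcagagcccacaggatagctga
Calcrl, chr2:84425267-84425516, minus strand: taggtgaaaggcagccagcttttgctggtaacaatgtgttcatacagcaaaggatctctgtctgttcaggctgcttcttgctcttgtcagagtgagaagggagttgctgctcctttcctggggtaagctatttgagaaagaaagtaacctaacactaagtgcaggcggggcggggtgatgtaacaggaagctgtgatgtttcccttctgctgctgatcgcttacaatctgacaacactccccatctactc
Adm held GCGTG at 2 places in this window, on the minus strand, and Ramp3 also held it at 2 places. It was present in 28.2% of all 32851 windows of this length in the table. The other letters searched, on both strands, were ACGTG (in 16.6% of windows), the steroid receptor half-site AGAACA (16.1%), the cyclic AMP element TGACGTCA (1.55%) and the TATA box TATAAA (12.4%). None of these 4 was found in the windows of Adm, Ramp1, Ramp3, Calcrl or Calcr. Only these exact letters were searched, so variant forms of the elements could be missed. The Adm window holds tataag near its end, which differs from TATAAA in the last base.

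None of the 7 genes passed the test for a difference between progesterone and oil (limma, Benjamini-Hochberg adjusted p under 0.05 over 18193 genes), where 11.7% of all genes passed, 5.92% as higher and 5.83% as lower. At an unadjusted limma p under 0.05 there was 1 of 7, which was Adm, against 26% of all genes. The median log2 change of the 7 genes was 0.10, beside -0.02 over all genes, and the median size of the change was 0.13, beside 0.16 over all genes. The same arrays showed the hormone's action: of 7 responders chosen as a check, which earlier results of these data had already shown, 6 were higher and 1 (Pgr, the progesterone receptor) was lower. The higher ones were Lrp2, Il13ra2, Cyp26a1, Hsd11b2, Fkbp5 and Ihh, by 4.09-fold to 22.6-fold. Levels are log2 values made with RMA, which combines the probes of a probe set, and with 3 arrays a group their precision is limited. A level within 1 log2 unit of the highest TrpnX control value, 3.34, was called near background, because the TrpnX probes have no mouse target. By that limit Calcb and Calcr were near background and the other 5 genes were above it.

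**Figure D1:**
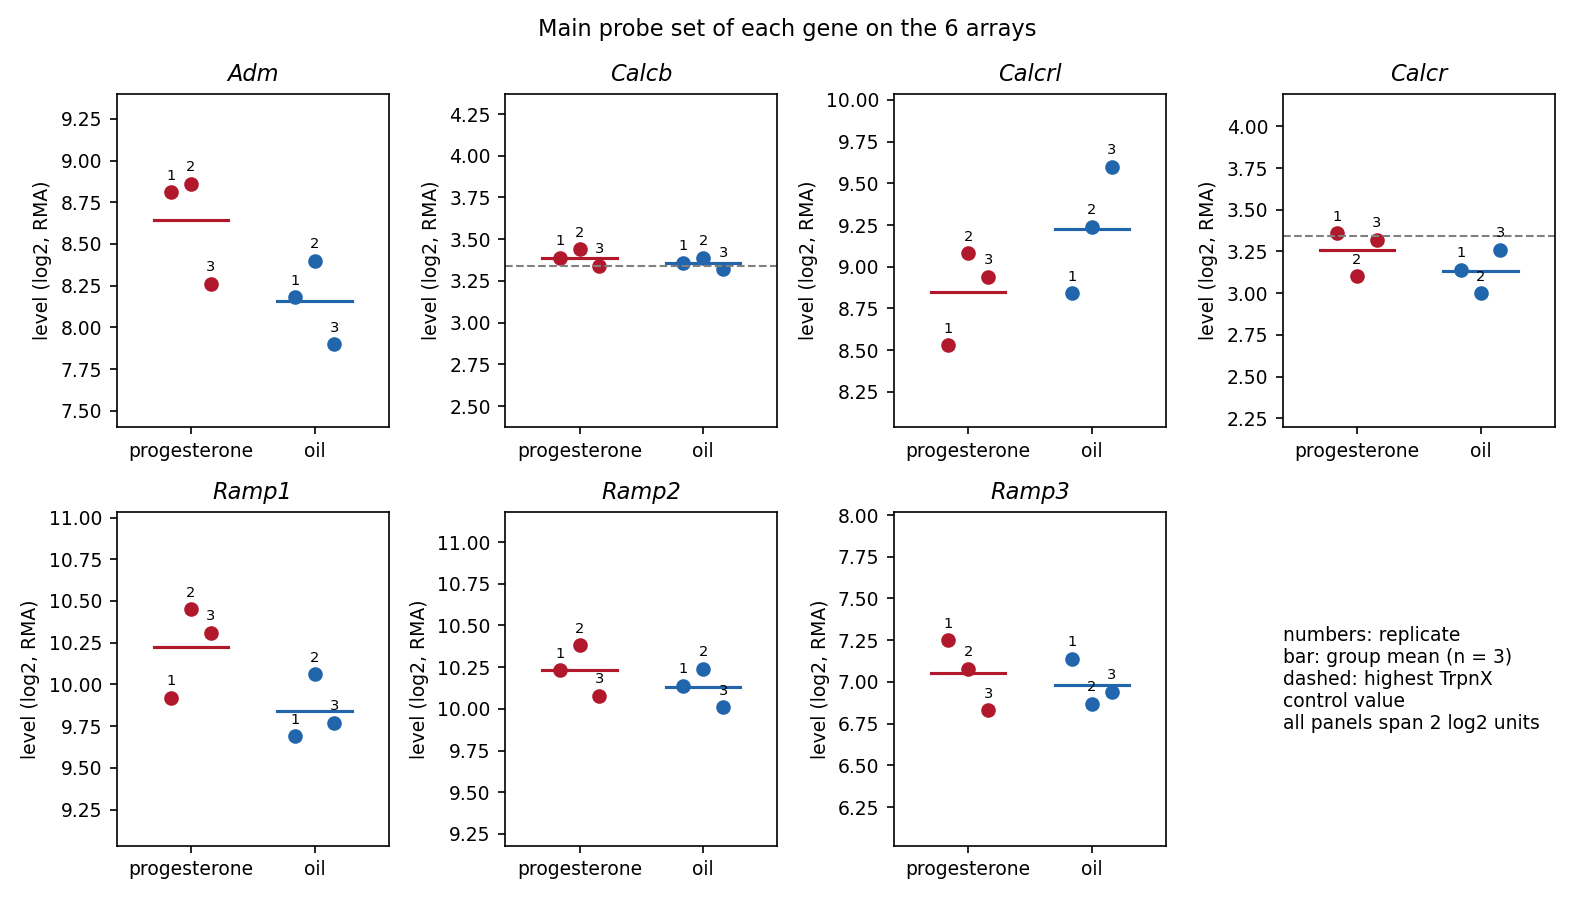
Level of the main probe set of each gene (vertical axis, log2 RMA value) on the 3 progesterone arrays (left) and the 3 oil arrays (right), with the group mean as a bar. All panels span 2 log2 units. The groups overlap in each of the 7 panels, and Calcb and Calcr lie near the dashed line of the highest TrpnX control value, 3.34.

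Adm, the gene of adrenomedullin, had the largest difference among the main probe sets over all 6 arrays. Its main probe set, 1447839_x_at, was at 8.81, 8.86 and 8.26 on progesterone replicates 1 to 3, against 8.18, 8.40 and 7.90 on oil replicates 1 to 3. Progesterone replicate 3 lay below oil replicate 2, so the groups overlapped, and the arrays numbered 3 were the lowest of both groups. The means were 8.64 ± 0.333 with progesterone and 8.16 ± 0.251 with oil (log2, SD, n = 3 each), a 1.40-fold difference. The log2 change was 0.48 ± 0.196 SE with a 95% interval of 0.02 to 0.95, and its limma adjusted p was 0.173. Between same-numbered arrays the progesterone array was higher by 0.63, 0.46 and 0.36. With the replicate number as a block the same change had an SE of 0.0988 and passed (limma adjusted p = 0.0251), and in that fit 16.1% of all genes passed, 7.6% as higher and 8.49% as lower. What a shared number stands for is not stated in the labels. Without progesterone replicate 1 the log2 change of Adm was 0.40, below the 0.54 of Ramp1, and without oil replicate 1 it was 0.49, smaller in size than the -0.57 of Calcrl.

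The x in the name of this probe set marks that some of its probes can also match other transcripts, which makes the second probe set of Adm a needed comparison. That one, 1416077_at, was at 7.25, 7.67 and 7.02 with progesterone, against 6.94, 7.38 and 6.58 with oil. All 3 same-numbered pairs again had the higher value with progesterone, and the groups again overlapped. Its log2 change was 0.35 (limma adjusted p over all probe sets 0.452, and 0.0637 with the replicate block). The log2 change of this second probe set was 0.17 without progesterone replicate 2, 0.15 without oil replicate 3 and 0.55 without oil replicate 2. Adm therefore passed with the block on its main probe set alone.

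Calcb encodes the beta form of calcitonin gene-related peptide, a peptide of sensory nerves that widens blood vessels. It was at 3.39, 3.44 and 3.34 on the progesterone arrays and at 3.36, 3.39 and 3.32 on the oil arrays. The highest TrpnX value of the same arrays was 3.20, 3.07 and 3.17 with progesterone and 3.18, 3.34 and 3.23 with oil, so Calcb lay just above the controls on each array. Its log2 change of 0.03 (95% interval -0.16 to 0.23, limma adjusted p = 0.863) was read at this level near background. Of 6 measured markers of neurons and Schwann cells, 3 were at or below 3.34 in both groups. The others, Uchl1, Prph and Sox10, were at 4.33, 4.48 and 5.39 with progesterone and at 4.46, 4.55 and 5.43 with oil. By their higher group mean these were above the near-background limit of 4.34.

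Calcrl, the receptor shared by adrenomedullin and calcitonin gene-related peptide, was the only one of the 7 with a lower mean after progesterone. Its main probe set, 1425814_a_at, was at 8.53, 9.08 and 8.94 on the progesterone arrays, against 8.84, 9.24 and 9.60 on the oil arrays. Each progesterone array was lower than the oil array of the same number, by 0.31, 0.16 and 0.66 on the log2 scale, while the groups overlapped. The means were 8.85 ± 0.286 with progesterone and 9.23 ± 0.380 with oil (log2, SD, n = 3 each). The log2 change of -0.38 ± 0.220 SE had a 95% interval of -0.89 to 0.14 and did not pass (limma adjusted p = 0.349, and 0.0902 with the replicate block). Leaving out oil replicate 3 gave -0.19, and leaving out progesterone replicate 1 gave -0.22.

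The other probe sets of Calcrl gave no second reading of this difference, because both were near background. Probe set 1418489_a_at lay between 3.39 and 3.57 with progesterone and between 3.36 and 3.50 with oil, and 1459536_at lay between 3.12 and 3.22 with progesterone and between 2.87 and 3.06 with oil. The second of these had all progesterone arrays above all oil arrays, as did 14% of all probe sets, and its log2 change of 0.17 ran opposite to the main one, at a level no higher than that of the controls. Averaged over the 3 probe sets, the log2 change of Calcrl was -0.04.

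Blood and lymph vessel cells are a known site of Calcrl, so their markers were set beside it. The summed level of 12 vascular endothelial markers was 12.09, 12.16 and 12.12 on progesterone replicates 1 to 3, against 12.22, 12.66 and 12.49 on oil replicates 1 to 3 (log2 of the sum). All progesterone arrays lay below all oil arrays, the closest being at 12.16 and 12.22. The sum of neuron and Schwann cell markers was also apart in this direction (closest at 6.81 and 6.82), and so was that of liver markers (6.38 and 6.39). Among single genes, 30.4% had their groups apart in either direction, so such a gap was not limited to vessel cells. Of the 12 markers 1 was lower and 11 did not pass, with a median log2 change of -0.29, and the replicate block gave 3 lower and 0 higher. Over all genes 5.83% passed as lower, and 8.49% with the block. The one that passed was Cldn5, a tight junction protein of vessels (log2 change -0.91 ± 0.181 SE, limma adjusted p = 0.0217), and its call ended without any 1 of the 3 progesterone arrays. Over all genes, 2137 passed with all 6 arrays and between 657 and 1755 with 1 array left out. Calls thus fell over the whole table, which bears on each lost call here and below. None of the 12 was at or below 3.34. The sum adds values off the log2 scale, so bright markers weigh most in it. Cldn5 was the brightest of the 12, at 9.49 with progesterone and 10.40 with oil. Flt1 had a higher mean with progesterone (log2 change 0.21), Egfl7 was at 9.06 in both groups, and all others had lower means. The gap between the groups in the sum is thus not a property of each marker. The 6 measured lymphatic endothelial markers summed to between 9.73 and 11.00 with progesterone and between 10.05 and 10.99 with oil. None of the 6 passed, their median log2 change was -0.31, and the replicate block gave 1 lower, Pdpn, a membrane protein of lymph vessels (log2 change -0.51, limma adjusted p = 0.217, and 0.0342 with the block). The 7 measured markers of uterine epithelium had the same median, -0.31, and none of them passed, so a median this low was not limited to vessel cells. The part of these markers in the values of Calcrl was not tested. In whole tissue, fewer cells of a type and less RNA per cell cannot be told apart.

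**Figure D2:**
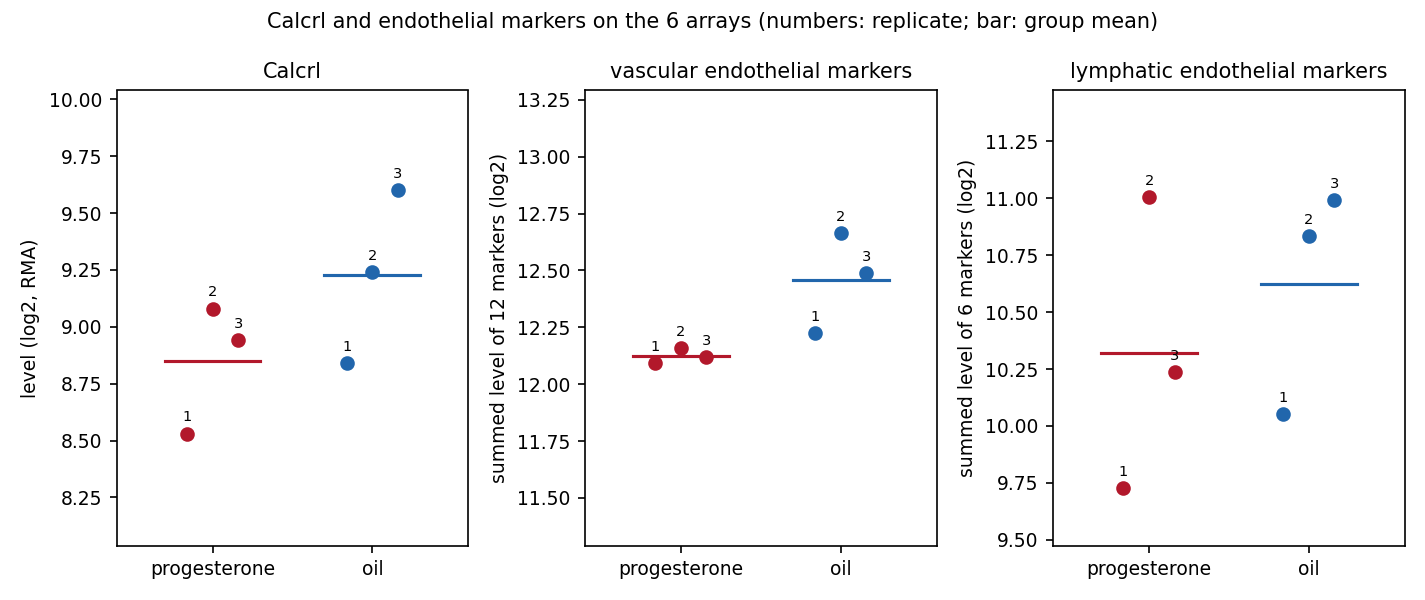
Calcrl (left, main probe set), the summed level of 12 vascular endothelial markers (middle) and that of 6 lymphatic endothelial markers (right), in log2 on the vertical axes, each on the 3 progesterone and the 3 oil arrays with the group mean as a bar. The vascular sum is the panel in which the groups do not overlap, with progesterone at 12.09 to 12.16 and oil at 12.22 to 12.66.

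Calcr, the calcitonin receptor, was at 3.36, 3.10 and 3.32 on the progesterone arrays and at 3.14, 3.00 and 3.26 on the oil arrays. Its means of 3.26 with progesterone and 3.13 with oil were both below the highest TrpnX value. The log2 change was 0.13 (95% interval -0.14 to 0.40, limma adjusted p = 0.565), and Calcr was near background in both groups.

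Ramp1, the partner that turns the Calcrl protein into a receptor for calcitonin gene-related peptide, had higher means with progesterone on all 3 of its probe sets. Its main probe set, 1417481_at, was at 9.92, 10.45 and 10.31 on the progesterone arrays, against 9.69, 10.06 and 9.77 on the oil arrays. Progesterone replicate 1 lay below oil replicate 2, so the groups overlapped. The means were 10.23 ± 0.275 with progesterone and 9.84 ± 0.195 with oil (log2, SD, n = 3 each), a 1.31-fold difference. The log2 change of 0.39 ± 0.165 SE had a 95% interval of -0.0023 to 0.78 and did not pass (limma adjusted p = 0.194, and 0.0515 with the replicate block).

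A second probe set of Ramp1, 1431413_at, was the only one of the 12 that passed when each of 34945 probe sets was tested on its own, where 8.99% passed and 4.9% passed as higher. It was at 6.88, 6.75 and 6.72 on the progesterone arrays, against 6.33, 6.41 and 6.11 on the oil arrays. The lowest progesterone array stood above the highest oil array, as in 14% of all probe sets. The log2 change was 0.50 ± 0.113 SE, or 1.41-fold (limma adjusted p over all probe sets 0.0354, and 0.0255 with the replicate block, where 13.3% of all probe sets passed and 6.81% passed as higher). The call ended when any 1 of the 6 arrays was left out, with limma adjusted p between 0.0667 and 0.0943, while the log2 change stayed between 0.41 and 0.56. Over all probe sets, 3143 passed with all 6 arrays and between 913 and 2439 with 1 array left out. The third Ramp1 probe set, 1447474_at, was near background at 4.02, 4.26 and 4.23 with progesterone, against 3.85, 3.98 and 4.05 with oil (log2 change 0.21, limma adjusted p over all probe sets 0.319). On each of the 3 probe sets every same-numbered pair was higher with progesterone. The 3 probe sets measure one gene on the same RNA and are not independent samples.

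Ramp2, the partner that makes the adrenomedullin receptor of blood vessels, was nearly level. It was at 10.23, 10.38 and 10.08 on the progesterone arrays and at 10.14, 10.24 and 10.01 on the oil arrays, and the groups overlapped along most of their range. The log2 change was 0.10 ± 0.113 SE (limma adjusted p = 0.661), and its 95% interval of -0.17 to 0.37 corresponds to a ratio between 0.891 and 1.29. Another 2 probe sets carry the names of both Ramp2 and Vps25 and were not used.

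Ramp3, the partner of the second adrenomedullin receptor, was at 7.25, 7.08 and 6.83 on the progesterone arrays and at 7.14, 6.87 and 6.94 on the oil arrays. The highest and the lowest of the 6 values both came from the progesterone group. The log2 change was 0.07 ± 0.135 SE (95% interval -0.25 to 0.39, limma adjusted p = 0.819), and it was -0.03 without progesterone replicate 1.

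**Figure D3:**
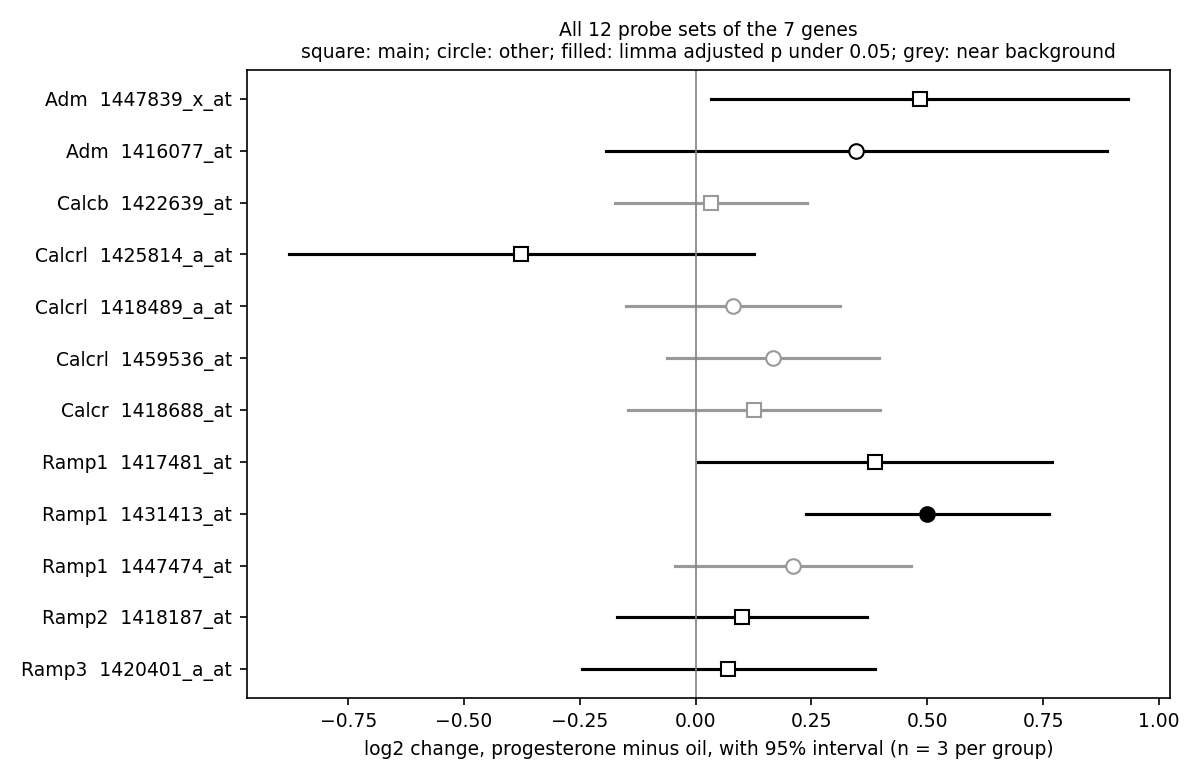
Log2 change of each of the 12 probe sets (horizontal axis, progesterone minus oil, n = 3 per group) with its 95% interval from the fit over all probe sets. Squares are main probe sets, filled symbols passed and grey symbols are near background. The filled circle is Ramp1 probe set 1431413_at at 0.50, and the main probe set of Calcrl, at -0.38, is the one to the left of 0.

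Over the main probe sets, 5 of the 7 genes (Adm, Calcb, Calcr, Ramp1 and Ramp2) were higher with progesterone in all 3 same-numbered pairs, as were 22.9% of all genes, and Calcb and Calcr among them were near background. In none of the 7 were the groups apart, which was the case for 30.4% of all genes.

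Whether members of the system changed unequally was tested on the difference between their log2 values within each array, for 5 pairs, with an exact two-sided permutation test that cannot give a p below 0.1. The difference between Ramp1 and Ramp2 was -0.31, 0.07 and 0.23 on the progesterone arrays, against -0.45, -0.18 and -0.24 on the oil arrays, a shift of 0.29 (exact p = 0.3, adjusted over the 5 pairs 0.375). Between Ramp1 and Ramp3 the shift was 0.32 (exact p = 0.3, adjusted 0.375), and between Ramp2 and Ramp3 it was 0.03 (exact p = 1, adjusted 1). The shift between Calcrl and Calcr was -0.50 and that between Adm and Calcb 0.45 (exact p = 0.2, adjusted 0.375 for both), in each case against a gene near background. This test takes no account of the replicate numbers. Between same-numbered arrays the shifts were 0.14, 0.25 and 0.47 for Ramp1 against Ramp2, and 0.12, 0.18 and 0.65 for Ramp1 against Ramp3. They were -0.02, -0.07 and 0.18 for Ramp2 against Ramp3, the one pair of genes with both signs. For Calcrl against Calcr they were -0.53, -0.26 and -0.72, and for Adm against Calcb 0.60, 0.41 and 0.34. None of the 5 shifts could pass at 0.05 with 3 arrays per group, and no paired test of them was run.

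The genes around the system were taken from fixed lists. Of the other ligands of the family, Adm2 and Iapp were measured and neither passed. Iapp, the gene of amylin, had the larger change and was near background (3.58 with progesterone and 3.50 with oil, limma adjusted p = 0.76). Of 5 measured genes that mature, clear or trap these peptides, namely Pam, Ide, Mme, Furin and Ackr3, none passed. Over all genes 11.7% passed, so the lack of a call in lists this short says little about them. Pam, whose enzyme adds the terminal amide that adrenomedullin needs, was at 9.36 with progesterone and 9.69 with oil (limma adjusted p = 0.567). Ackr3, a decoy receptor for adrenomedullin in the mouse, was at 8.86 in both groups (limma adjusted p = 0.995).

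Of 13 measured genes that couple the receptor to the cell, 0 were higher and 1 was lower, with 12 not past the threshold and a median log2 change of -0.03. Over all genes 5.83% passed as lower, and 8.49% with the replicate block. The one that fell was Arrb1, beta-arrestin 1, which takes activated receptors out of signalling. It averaged 7.79 ± 0.106 with progesterone and 8.64 ± 0.116 with oil (log2, SD, n = 3 each), a log2 change of -0.85 ± 0.104 SE (limma adjusted p = 0.00509) that also passed without any 1 array. With the replicate block 2 of the 13 were lower, the second being Grk3, a receptor kinase (log2 change -0.47, limma adjusted p = 0.081, and 0.0233 with the block). Crcp, the receptor component protein that helps Calcrl signal, did not pass (log2 change 0.27, limma adjusted p = 0.291), and neither did Gnas, the stimulatory G protein (-0.27, limma adjusted p = 0.122).

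Of 30 measured genes of the cyclic AMP pathway, 1 was higher, 2 were lower and 27 did not pass, with a median log2 change of -0.14. The share of all genes that passed was 11.7%, and 16.1% with the replicate block. Prkar2a, a regulatory subunit of protein kinase A, was 1.37-fold higher (log2 change 0.45, limma adjusted p = 0.035). Pde7b, a phosphodiesterase that breaks down cyclic AMP, was 1.48-fold lower (log2 change -0.57, limma adjusted p = 0.0186), and Adcy6, an adenylyl cyclase that makes it, was 1.30-fold lower (log2 change -0.38, limma adjusted p = 0.0451). The call of Prkar2a ended without any 1 array, and that of Adcy6 without any 1 array other than progesterone replicate 1. That of Pde7b ended without progesterone replicate 3, oil replicate 2 or oil replicate 3. Pde7b and Prkar2a also have further probe sets, and 0 of these passed in the same direction as the main one. With the replicate block 1 was higher and 3 were lower, the third being Prkar1b, another regulatory subunit of protein kinase A (log2 change -0.54, limma adjusted p = 0.0536, and 0.0352 with the block).

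In other peptide systems that act on vessels, 1 of 31 measured genes was higher, 2 were lower and 28 did not pass, with a median log2 change of -0.07. Over all genes 11.7% passed, and 16.1% with the replicate block. Ednrb, a receptor for endothelins, was 2.63-fold higher, at 8.44 ± 0.199 with progesterone and 7.04 ± 0.0608 with oil (log2, SD, n = 3 each; limma adjusted p = 0.00173), and it passed without any 1 array and on a second probe set. Agtr1a, a receptor for angiotensin II, was 2.39-fold lower, at 7.33 ± 0.522 with progesterone and 8.58 ± 0.0850 with oil (limma adjusted p = 0.0196). Its call ended without progesterone replicate 3, oil replicate 1 or oil replicate 2. Npr3, the clearance receptor for natriuretic peptides, was 1.51-fold lower (limma adjusted p = 0.0451), a call that ended without any 1 array. Npr3 also has further probe sets, and 0 of these passed in the same direction. With the replicate block 1 was higher and 3 were lower, the third being Npr2, a receptor for C-type natriuretic peptide (log2 change -0.40, limma adjusted p = 0.183, and 0.0406 with the block).

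Adm is known to be raised by hypoxia, so 18 genes tied to hypoxia-inducible factors, with Hif1a and Epas1 of the factors themselves among them, were set beside it. Past the threshold, 3 were higher (Hif1a among them) and 1 was lower, and the remaining 14 did not pass, with a median log2 change of 0.20. Over all genes 5.92% passed as higher and 5.83% as lower. The replicate block gave 6 higher and 1 lower, where 7.6% of all genes passed as higher in that fit. Pfkfb3, which drives glycolysis, was 6.05-fold higher (log2 change 2.60, limma adjusted p = 0.00428), and P4ha2, a collagen prolyl hydroxylase, was 3.80-fold higher (log2 change 1.93, limma adjusted p = 0.00137). Hif1a, a subunit of the factor itself, was 1.74-fold higher (limma adjusted p = 0.0163), a call that ended without progesterone replicate 2, oil replicate 1 or oil replicate 2. Ndrg1 was 1.39-fold lower (limma adjusted p = 0.0231), a call that held without oil replicate 3 and ended without any other 1 array. Of the further probe sets of Ndrg1, 0 passed in the same direction, while Pfkfb3 and Hif1a each had 1 that did. Hk2, Vegfa and Ldha, other targets of the factor, had log2 changes of 1.42, 0.41 and 0.38 (limma adjusted p = 0.283, 0.192 and 0.38). These 3 passed with the block (limma adjusted p = 0.0297, 0.0489 and 0.0451). Slc2a1, also in this list, had a log2 change of 0.83 and passed in neither fit (limma adjusted p = 0.0533, and 0.0568 with the block). Its groups were apart, as they were in the same direction for 14.5% of all genes, and 2 of its further probe sets passed as higher. Others had lower means with progesterone and did not pass in either fit, among them Ankrd37, Pdk1 and Bnip3 (log2 changes -0.61, -0.55 and -0.26, limma adjusted p = 0.209, 0.0682 and 0.158).

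**Figure D4:**
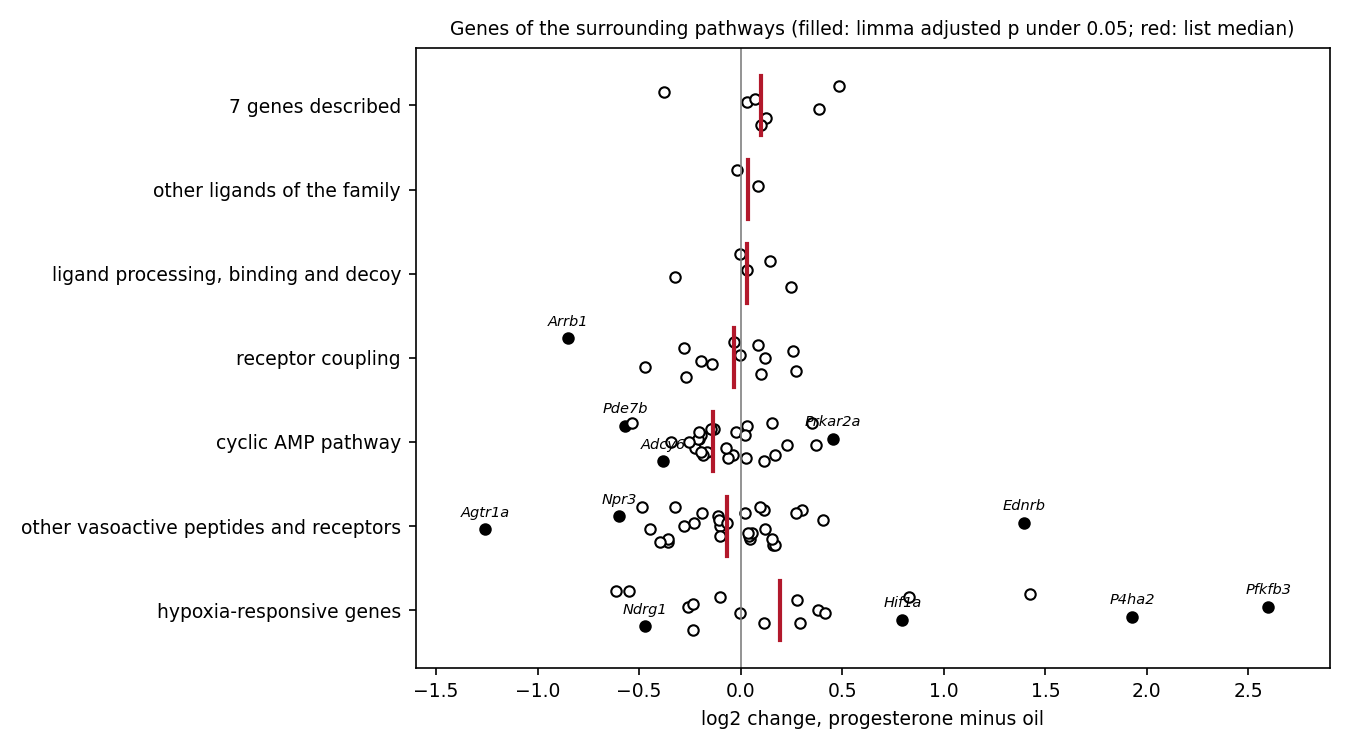
Log2 change, progesterone minus oil (horizontal axis), of the main probe set of each measured gene in the 7 lists. Filled points passed, and red bars are list medians. All 7 points of the adrenomedullin and RAMP row are open and lie between -0.38 and 0.48, while Pfkfb3, P4ha2, Ednrb and Agtr1a stand farther from 0.

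The 5 named genes whose pattern over the 6 arrays was nearest to that of Adm, by the root mean square difference of log2 values centred on each gene's mean, were Ficd (0.0865), Tnik (0.0976), Tmcc2 (0.102), Fancf (0.106) and Zswim1 (0.110). Their log2 changes lay between 0.36 and 0.47, and none of them passed (limma adjusted p between 0.0621 and 0.289). Genes chosen for nearness to Adm on these arrays have changes near its own by that choice, so these values are a description and not a separate result.

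Array medians lay between 5.51 and 5.53. Markers of smooth muscle, stroma and epithelium, the main tissues of the uterus, were above the control level in both groups. Of 8 smooth muscle markers none passed, with a median log2 change of -0.04. Of 8 stromal markers 1 was higher and 1 was lower, with a median of -0.05, and the replicate block gave 2 higher and 2 lower. The share of all genes that passed was 11.7%, and 16.1% with the block. Hand2, a transcription factor of the uterine stroma that progesterone is known to raise, was 1.55-fold higher (limma adjusted p = 0.0157), a call that ended without oil replicate 1 or oil replicate 2. Hand2 also has further probe sets, and 0 of these passed in the same direction. Lum, a collagen-binding proteoglycan, was 2.01-fold lower (limma adjusted p = 0.0257), a call that held without progesterone replicate 1 or 2 and ended without any other 1 array. Other cell types varied between arrays of one group. The sum of 7 macrophage markers was 9.74, 11.63 and 11.83 on progesterone replicates 1 to 3, against 10.02, 11.05 and 11.66 on oil replicates 1 to 3. It was lowest on replicate 1 of both groups, and none of the 7 markers passed, with or without the block. The sum of 6 neutrophil markers was 12.92 and 13.35 on progesterone replicates 2 and 3 and 12.75 on oil replicate 3, and between 6.68 and 6.74 on the other 3 arrays, and the block gave 1 of the 6 as higher. The sum of 5 liver markers was 9.43 on oil replicate 3 and at most 6.42 elsewhere. The sum of 4 adipocyte markers was 8.00, 9.04 and 6.79 on progesterone replicates 1 to 3, against 9.82, 10.01 and 8.94 on oil replicates 1 to 3, lower with progesterone in every same-numbered pair. None of the 4 passed, with a median log2 change of -1.16, and the block gave 3 lower, Adipoq, Fabp4 and Cidec (limma adjusted p = 0.113, 0.114 and 0.118, and 0.0135, 0.00765 and 0.0338 with the block). The part of these cell types in the values of the 7 genes was not tested. Without both arrays numbered 3, the log2 change was 0.55 for Adm, 0.31 for Ramp1 and -0.24 for Calcrl, and none passed (limma adjusted p = 0.0758, 0.485 and 0.623).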

How the data were processed

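Gene expression was measured on 6 one-colour Affymetrix arrays with biotinylated cRNA, per the labels' protocols. The table deposited by the authors holds log2 values for 45101 probe sets, made with Partek 6.6 and RMA, per the submitters' processing notes. The settings of RMA are not given in the sources used here, and samples were grouped by their titles. The TrpnX controls stood for background, since no detection calls entered.

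Gene names came from the platform annotation, where 34945 probe sets other than the 64 controls had 1 symbol. Promoter sequences came from RefSeq (GRCm38.p6). The test of progesterone against oil was that of limma 3.58.1 (R 4.3.3), two-sided, by lmFit and eBayes with no filter and no block. The p-values were adjusted over all 18193 genes by the Benjamini-Hochberg method and read at 0.05. The genes, lists and tests were chosen with earlier results of these data known. The text names the 7 genes, up to 4 members past the threshold per list (or the one with the largest change) and the 5 nearest patterns to Adm, and Adm2, Ide, Mme, Furin, Ackr3, Grk3, Crcp, Gnas, Prkar1b, Npr2, Hk2, Vegfa, Ldha, Slc2a1, Ankrd37, Pdk1, Bnip3, Epas1, Cldn5, Flt1, Egfl7, Pdpn, Uchl1, Prph, Sox10, Hand2, Lum, Adipoq, Fabp4 and Cidec were named after their values were seen.

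Arrays with the same number deviated together from their group means, with correlations across genes of 0.523, 0.141 and 0.636, each over 0.1. The main test and the permutation test did not use the numbers. A further fit took the numbers as pairs, by a replicate block. Its counts are printed beside the main ones where they change for the members or lists. For single genes of the lists whose call it changed, its adjusted p is printed for a part only. Nothing in the labels gives this pairing, and the correlation of oil replicate 2 with progesterone replicate 1 was 0.322, above that with its own number. The procedure was also tested on simulated data. The alternatives were other scalings, an offset of 32, filters on the lowest 25% or 50% of genes, other summaries of probe sets, trended and robust eBayes, the replicate block, arrays left out and an adjusted p of 0.01.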

Additional observations from a re-analysis of the deposited data

How the results depend on the processing

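None of the 7 genes passed (limma adjusted p under 0.05) under any alternative except the replicate block, where the count was 1, which was Adm (log2 change 0.48, limma adjusted p = 0.0251). The adjusted p of Adm ranged from 0.0251 to 0.390 over its 17 alternatives. With the block the call of no other of the 7 genes changed. The direction of Adm, Calcb, Calcr, Calcrl, Ramp1 and Ramp2 was the same under every alternative that gave a value. The log2 change of Ramp3 lay between -0.028 and 0.182 when 1 array was left out. The shift between Ramp2 and Ramp3 was -0.0042 after quantile renormalization, -0.045 without both arrays numbered 3, and between -0.043 and 0.142 when 1 array was left out. The causes were not tested. Calcb and Calcr had no value under the filters on dim genes. The call of Ramp1 probe set 1431413_at did not pass at an adjusted p of 0.01 or without both arrays numbered 3 (limma adjusted p = 0.113), and passed under the scalings, the offset, the filters, the trended fit and the block. With 3 arrays per group the intervals of the log2 changes are wide, and for Calcb and Calcr the signal near background limits what can be read.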
